A study of Mus musculus with 6 samples.

Results

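Long intergenic noncoding RNAs (lincRNAs) are transcripts of genes that lie between protein-coding genes and carry no recognised protein. The 205 described here were selected on their abundance in these same libraries: a row of the count table classed as lincRNA was taken when its mean over the 6 libraries was at least 2 CPM (counts scaled to a common library total), with 1 further lincRNA row, Gm26887, left out by the rule. They are 205 of 55493 genes in the table, and 205 of 5629 lincRNA rows, of which 2573 had at least 1 read. Abundance was thus fixed by the choice and is given as a description, with no test. The rule did not use the treatment.

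RNA came from brain microglia, which are tissue macrophages; they were obtained by flow sorting as CD45-low and CD11b+ cells. All mice were males 4 months old at the start and carried both the ILT Telo transgene and 5XFAD, an amyloid model whose mutant human transgenes are expressed in neurons under the Thy1 promoter. Control mice (labelled Ctrl IgG2a) received the Fc-mutant antibody 27D6, and treated mice received the Fc-mutant anti-ILT3 antibody ZM3.1, labelled anti-LILRB4. Both antibodies were injected intraperitoneally at 60 mg/kg, weekly, 8 times. There were 3 libraries per group, with 39805118 to 56345514 counts each. The series set out to ask what blocking LILRB4, an inhibitory receptor of myeloid cells also called ILT3, does to amyloid pathology and to the microglial transcriptome. The labels do not say that the 3 libraries of a group are 3 separate mice, and the p-values here therefore rest on a spread among libraries that may be partly technical.

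Nuclear lincRNAs can build or occupy nuclear bodies, as Neat1 does for paraspeckles and Malat1 for nuclear speckles. Others are host transcripts, from which microRNAs (miRNAs) or small nucleolar RNAs (snoRNAs) are cut out. Many are short-lived transcripts that start next to a protein-coding promoter and run away from it, and such divergent transcripts are often degraded by the nuclear exosome. Several members with a name of their own sit beside a regulator of growth or survival, such as Pvt1 beside Myc, Trp53cor1 beside Cdkn1a and Morrbid beside Bcl2l11.

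Of the 205 members, 10 span an annotated miRNA gene and 9 span a snoRNA or a small Cajal body RNA. The mature miRNAs of the more abundant or better known hosts are given first, because they are what these host transcripts are known to yield. Sequences are from RefSeq (GRCm38.p6), 5′ to 3′, and capitals mark the seed, bases 2 to 8, which pairs with target messages. Mir142hg, the host of the blood-cell miRNA miR-142, lies on chromosome 11 and carries both arms of that hairpin.
mmu-miR-142a-5p: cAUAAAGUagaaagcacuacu
mmu-miR-142a-3p: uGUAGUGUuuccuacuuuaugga
The transcript 6720427I07Rik on chromosome 13 spans 3 let-7 genes, whose 5p arms share the seed GAGGUAG.
mmu-let-7a-5p: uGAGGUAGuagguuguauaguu
mmu-let-7d-5p: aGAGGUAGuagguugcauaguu
mmu-let-7f-5p: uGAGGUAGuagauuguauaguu
Mir181a-1hg on chromosome 1, the X-linked Ftx and 4833445I07Rik on chromosome 9 each carry other seeds.
mmu-miR-181b-5p: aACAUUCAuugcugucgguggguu
mmu-miR-374b-5p: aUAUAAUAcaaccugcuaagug
mmu-miR-191-5p: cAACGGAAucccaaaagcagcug
mmu-miR-425-5p: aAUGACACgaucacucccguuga

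Promoter windows (250 bases before to 50 after a RefSeq start) were matched by symbol for 89 of the 205 members. Some windows lie far from the member's start in the GENCODE M21 annotation, such as 73414 bases for Morrbid and 9787 for A630001O12Rik. Their median CpG count was 9, against 7 over 27025 genes with a window. Members that start divergently from a protein-coding gene had a median of 24 CpGs (13 matched), and those over 50 kb from any protein-coding gene had 7 (15 matched). The window of 1110006O24Rik is shown because it lies 92 bp from the start of Rab35 on the opposite strand and because this transcript is among those lowest after anti-LILRB4. It holds 41 CpGs, in capitals, at chr5:115631767-115632066 on the minus strand (GRCm38.p6).
1110006O24Rik: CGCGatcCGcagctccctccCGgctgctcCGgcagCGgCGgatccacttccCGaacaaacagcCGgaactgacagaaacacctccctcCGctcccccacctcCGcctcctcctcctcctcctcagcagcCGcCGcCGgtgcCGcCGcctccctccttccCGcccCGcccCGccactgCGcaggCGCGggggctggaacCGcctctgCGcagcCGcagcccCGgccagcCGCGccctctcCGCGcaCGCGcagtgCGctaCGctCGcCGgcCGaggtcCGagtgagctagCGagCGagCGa
The letters GAGGAAGT, a core bound by the macrophage lineage factor PU.1, stood on either strand in 6 of the 89 member windows (6.74%), against 3.28% of all 27025 genes. The 6 include the windows of Morrbid and A630001O12Rik, which lie far from the annotated start. Another of the 6 is A430105J06Rik, named here after its values were seen, which starts 38 bp from Rrp15 on the opposite strand. Capitals mark the match, read on the other strand, at chr1:186749146-186749445 on the plus strand.
A430105J06Rik: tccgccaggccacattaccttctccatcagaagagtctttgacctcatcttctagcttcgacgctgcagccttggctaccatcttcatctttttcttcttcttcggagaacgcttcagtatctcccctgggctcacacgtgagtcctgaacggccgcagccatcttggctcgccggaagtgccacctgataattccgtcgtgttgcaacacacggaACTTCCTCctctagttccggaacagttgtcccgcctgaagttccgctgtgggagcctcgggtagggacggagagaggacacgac
Such a match is a string of letters and not a shown binding site. On the same count, the cAMP response element TGACGTCA was in 4.49% of member windows against 1.88% of all, the AP-1 site TGANTCA in 8.99% against 7.93%, TATAAA in 15.7% against 14.2%, and an interferon-type repeat (GAAA followed, after 2 bases, by GAAA) in 2.25% against 3.49%.

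Malat1 made up most of the lincRNA signal. Its level was 6489, 6572 and 6357 CPM in the control libraries and 6649, 6728 and 4624 CPM in the anti-LILRB4 libraries. Anti-LILRB4 library 3 was thus the low one, and the other 5 lay within a narrow range. Malat1 supplied 65.4% to 72.6% of all member counts in a library. The next most abundant members were far lower: Gm10076 had a control mean of 180.3 ± 23.2 CPM (SD, n = 3), Mir142hg 113 ± 5.28, Gm5086 105 ± 4.99, Gm2629 100.5 ± 6.99, 2900097C17Rik 99.4 ± 5.41, 3222401L13Rik 82.8 ± 3.50 and Gm10134 81.3 ± 5.91. The transcript 2900097C17Rik is the mouse Norad RNA, which binds Pumilio proteins. Among these 7, the groups did not overlap only for Gm5086, with 110.7, 101.4 and 102.9 CPM in control and 115.8, 120.5 and 111.5 in anti-LILRB4 libraries (log2 fold change of 0.14 ± 0.10, edgeR adjusted p of 0.775). The other 6 ran from -0.20 for Gm10076 to 0.44 for Gm10134. Per kilobase of exon, the order over all 6 libraries was Malat1 with 893 CPM per kb, Gm10076 with 439, Mir142hg with 426 and Gm10134 with 251.

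Most members were scarce. The median member had 5.72 CPM, 63 of 205 had at least 10 CPM, 5 had at least 100 CPM and 82 lay between 2 and 5 CPM. The members just inside the threshold were Gm33370 at 2.04 CPM, Gm49964 at 2.06 and 1110013H19Rik at 2.09, and the lincRNA rows just outside were Gm30211 at 1.97, Gm32856 at 1.96 and 6430573P05Rik at 1.95. In the GENCODE M21 annotation (GRCm38), 50 members have 1 exon, and the exon length has a median of 1687 bp and runs from 154 to 93147 bp. The same annotation classes 201 members as lincRNA, Gm10134, Gm47283 and Gm21860 as protein-coding and Snhg15 as a processed transcript. The exons of 49 members overlap those of another gene, in 17 cases a protein-coding gene, and with a kit that does not mark strand the reads of such pairs cannot be told apart.

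**Figure D1:**
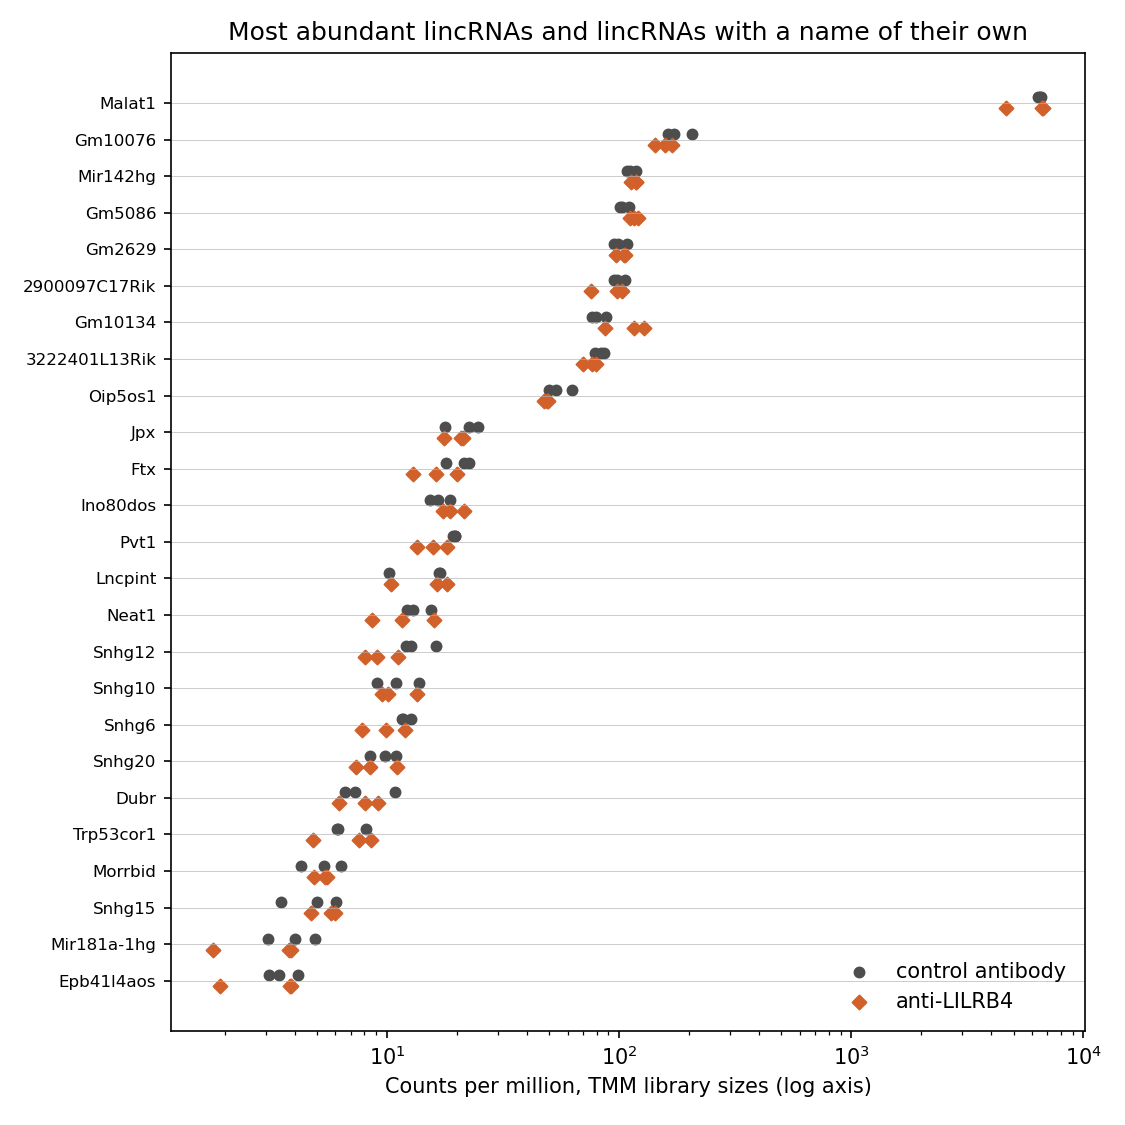
Level of the most abundant members and of members with a name of their own, in CPM on a log axis; each dot is a control library and each diamond an anti-LILRB4 library. Malat1 lies between 4624 and 6728 CPM and all other lincRNAs drawn lie far lower, and the groups overlap in most lines.

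The share of a library's counts in the 205 members was 0.894%, 0.941% and 0.889% in the control libraries and 0.931%, 0.950% and 0.694% in the anti-LILRB4 libraries. The groups overlapped, and only library 3 of the anti-LILRB4 group lay outside the range of 0.889% to 0.950%. The means were 0.908 ± 0.0290% and 0.858 ± 0.142% (SD, n = 3 each), with an exact two-sided permutation p of 0.9, where 3 against 3 libraries cannot give less than 0.1. Without anti-LILRB4 library 3 the difference changed sign, from -0.0495 to 0.0326 percentage points. Malat1 alone went from 0.638%, 0.666% and 0.628% to 0.676%, 0.681% and 0.454% (exact permutation p of 1). The other 204 members took 0.256%, 0.275% and 0.261% of counts in control libraries and 0.255%, 0.269% and 0.240% in anti-LILRB4 libraries (exact permutation p of 0.4).

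**Figure D2:**
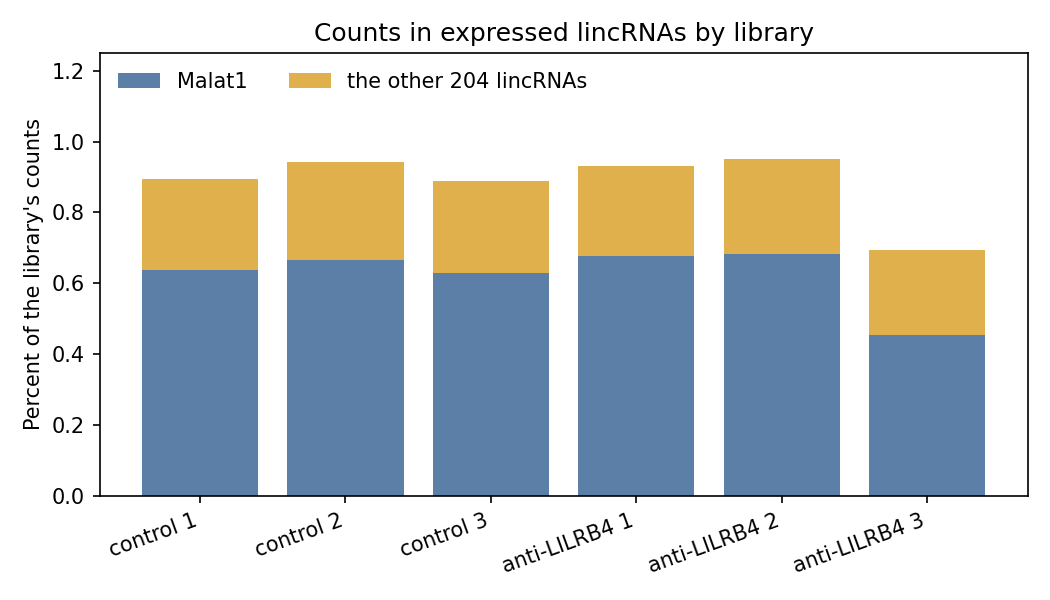
Percent of each library's counts that fell in the 205 lincRNAs, with Malat1 and the other 204 stacked; each bar is 1 library. Anti-LILRB4 library 3 holds 0.694%, and the other 5 bars reach 0.889% to 0.950%.

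In library 3 of the anti-LILRB4 group, other classes outside annotated protein-coding genes were low as well: rows of the class TEC, whose existence awaits experimental proof, took 0.492% of counts there against 0.563% to 0.680% in the other libraries, and sense-intronic rows 0.0624% against 0.0670% to 0.0871%. That library held the lowest value of 56 members (27.3%), against 18.5% of all 18210 genes tested. Control library 2 and anti-LILRB4 library 2 were the 2 highest of the 6 libraries for 12.2% of members, against 7.40% of all genes. What part these library differences have in the treatment comparison was not tested.

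Between treatments, no member passed the test. With edgeR's quasi-likelihood test, 0 of 205 members had a Benjamini-Hochberg adjusted p under 0.05 (smallest 0.426), and over all 18210 genes tested the share called was 0%. All 205 members passed the filter on low counts. DESeq2 called 3 members (Gm47283, Gm34455 and Gm5464), all lower after anti-LILRB4, against 1.1% of all genes with an adjusted p, and limma-voom called 0. By the adjusted p that the authors deposited in their own table of the comparison, 2 members were under 0.05, against 0.981% of the genes listed with one.

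At an unadjusted edgeR p under 0.05 there were 22 members (10.7%), against 8.03% of all genes. The share was 9.54% among protein-coding genes and 5.22% among the other lincRNA rows tested. The members were chosen for abundance and all genes were not, so these shares are not matched for abundance. Of the 22 members, 17 were lower and 5 higher after anti-LILRB4, where 3.91% of all genes were lower at that threshold. The 3 libraries of one group lay wholly beyond the 3 of the other for 40 members (19.5%), against 14.7% of all genes. In 31 of the 40 the anti-LILRB4 libraries were the lower ones, and over all genes 7.79% were lower in this way. The log2 fold change, anti-LILRB4 minus control, had a median of -0.12 over the members, with 79 above 0 and 126 below, and ran from -1.26 to 1.16. Over all genes tested the median was -0.01 (50.9% below 0), and over protein-coding genes it was 0.02.

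The 383 other lincRNA rows that were tested had the same median of -0.12, and the antisense, TEC and processed-transcript rows had medians of -0.06, -0.07 and -0.08. Among members of at least 10 CPM the median was -0.06, with 28 higher and 35 lower, and among those of 2 to 10 CPM it was -0.18, with 51 higher and 91 lower. By library, the members' median deviation from each gene's mean was 0.05, 0.14 and 0.05 in control libraries and -0.02, 0.01 and -0.12 in anti-LILRB4 libraries, on the log2 scale. Without anti-LILRB4 library 3 the median fold change was -0.08, with 84 higher and 121 lower.

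**Figure D3:**
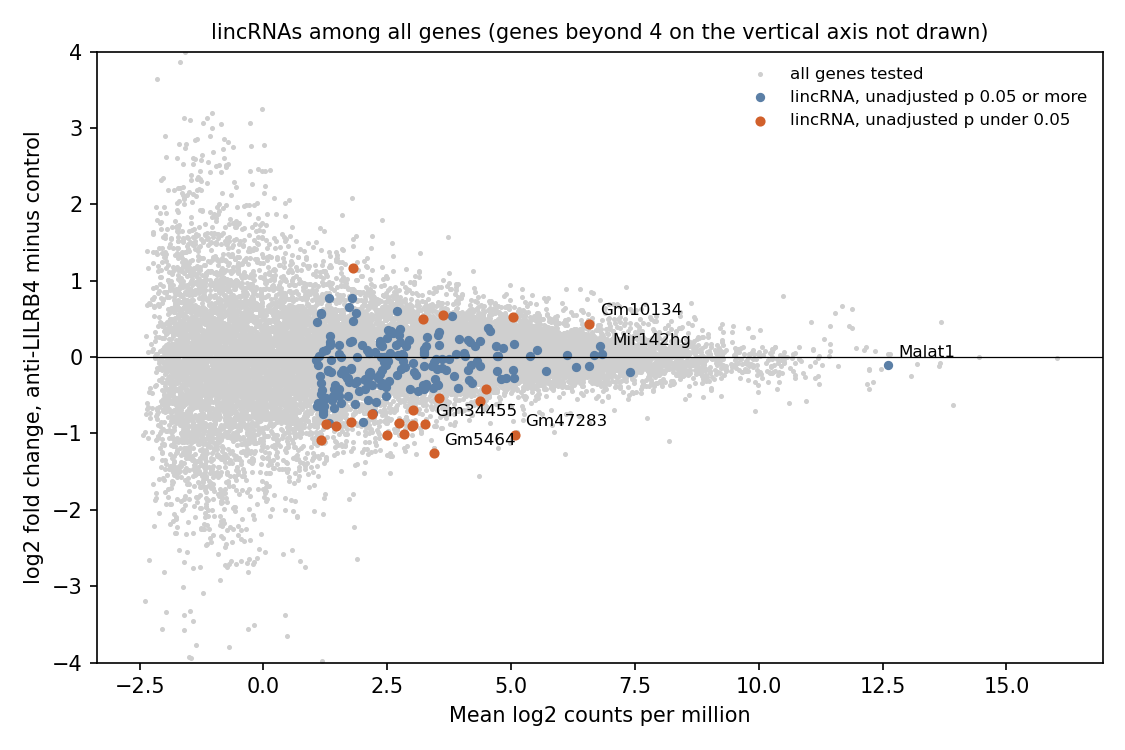
Log2 fold change, anti-LILRB4 minus control, against mean log2 CPM for all genes tested (grey) and for the lincRNAs (coloured by unadjusted p); genes beyond 4 on the vertical axis are not drawn. The lincRNAs with an unadjusted p under 0.05 number 17 below 0 and 5 above, inside the spread of the other genes.

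The 8 members with the smallest unadjusted p among those lower were Gm47283, Gm34455, 1110006O24Rik, Gm5464, B230317F23Rik, AC160336.1, B930059L03Rik and A930029G22Rik. Their groups did not overlap. None had an edgeR adjusted p under 0.05.

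Gm47283 lies on chromosome Y (90784738 to 90816464, plus strand). It had 32.5, 45.1 and 57.6 CPM in control libraries and 18.4, 21.9 and 26.5 CPM in anti-LILRB4 libraries. Every anti-LILRB4 library was below every control library, though the control values themselves spread widely. The log2 fold change was -1.02 ± 0.22 (SE), with an edgeR adjusted p of 0.426. DESeq2 gave an adjusted p of 0.00384, and in the authors' deposited table it was 0.00569. All mice were males, and what sex has to do with this value was not tested. GENCODE M21 classes Gm47283 as protein-coding.

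Gm34455 (chromosome 17, 26467560 to 26503200, minus strand) starts 2390 bp past the 3′ end of Dusp1, on the same strand. Dusp1 encodes a phosphatase that is quickly induced by stress. Gm34455 had 14.4, 11.0 and 11.7 CPM in control libraries and 5.79, 6.38 and 7.99 in anti-LILRB4 libraries, with no overlap. Its log2 fold change was -0.88 ± 0.23 (SE; edgeR adjusted p of 0.426, DESeq2 adjusted p of 0.0290, and an adjusted p of 0.0209 in the authors' deposited table). Dusp1 itself had a log2 fold change of -0.22 ± 0.29, and its groups overlapped.

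Gm5464 (chromosome 14, 66868850 to 66871723, plus strand) starts 162 bp from Dpysl2, on the opposite strand. Dpysl2 encodes a protein that binds tubulin. Gm5464 had 14.7, 19.2 and 11.9 CPM in control libraries and 3.04, 6.89 and 9.18 in anti-LILRB4 libraries. Library 1 of the anti-LILRB4 group was the lowest. The log2 fold change was -1.26 ± 0.37 (SE; edgeR adjusted p of 0.476, DESeq2 0.0476), and 0.0584 was the adjusted p in the authors' deposited table. With each library left out in turn it lay between -1.61 and -0.92. Dpysl2 went from a mean of 3225 to 2961 CPM, a log2 fold change of -0.12 ± 0.07. Its groups did not overlap either, with every anti-LILRB4 library below every control library.

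The short transcript 1110006O24Rik, whose CpG-rich window is printed above, had 9.74, 6.72 and 6.03 CPM in control libraries and 3.59, 4.52 and 2.91 in anti-LILRB4 libraries. Its groups did not overlap, with a log2 fold change of -1.03 ± 0.30 (SE; edgeR adjusted p of 0.462, DESeq2 0.0759). Rab35, the small GTPase gene on the other side of that window, had a log2 fold change of -0.14 ± 0.18. B230317F23Rik is arranged in the same way, 137 bp from Clcn3, the gene of an endosomal chloride and proton exchanger. It had 7.03, 7.86 and 10.8 CPM in control libraries and 3.79, 4.80 and 5.56 in anti-LILRB4 libraries. Its log2 fold change was -0.86 ± 0.27, and that of Clcn3 was -0.04 ± 0.11.

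A930029G22Rik, which starts 22 bp from Akain1 and shares exon sequence with C030034I22Rik, had 30.3, 21.7 and 22.3 CPM in control libraries and 17.8, 14.6 and 17.2 in anti-LILRB4 libraries (log2 fold change of -0.58 ± 0.19). B930059L03Rik, which lies 7450 bp past Ppp2r5c on the same strand, had means of 10.4 ± 3.01 and 5.65 ± 1.29 CPM (SD, n = 3 each) and a log2 fold change of -0.89 ± 0.28. AC160336.1 had means of 10.3 ± 3.20 and 5.50 ± 1.19 CPM and a log2 fold change of -0.91 ± 0.29. Its exons overlap those of Gm16439, Gm5624, Gm8247, Gm8256 and Gm9593, so the split of its reads is uncertain.

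The 5 members that were higher at an unadjusted p under 0.05 were Gm10134, AU020206, AU022793, 4933424M12Rik and 1700056N10Rik. Gm10134 had 79.2, 76.8 and 88.0 CPM in control libraries and 86.6, 128 and 116 in anti-LILRB4 libraries, so the groups overlapped through 1 library of each (log2 fold change of 0.44 ± 0.15, edgeR adjusted p of 0.523). It lies 680 bp past the 3′ end of Gbgt1, a glycosyltransferase gene on the same strand, which had 5.00 CPM in control and 7.75 CPM in anti-LILRB4 libraries on average (log2 fold change of 0.63 ± 0.34). The groups did not overlap for AU020206, near the anchoring-protein gene Akap13, with means of 26.7 ± 2.19 and 38.5 ± 10.5 CPM and a log2 fold change of 0.53 ± 0.19. Anti-LILRB4 library 2 was the high one, with 50.6 CPM.

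AU022793 had means of 9.99 ± 1.55 and 14.7 ± 2.08 CPM (log2 fold change of 0.55 ± 0.21), and 4933424M12Rik had 7.66 ± 0.83 and 10.8 ± 1.48 CPM (0.50 ± 0.22). The groups were apart for both. 1700056N10Rik had 0.633, 2.93 and 2.84 CPM in control libraries and 5.30, 5.52 and 3.50 in anti-LILRB4 libraries, and control library 1 was far below the rest. Its log2 fold change was 1.16 ± 0.51.

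**Figure D4:**
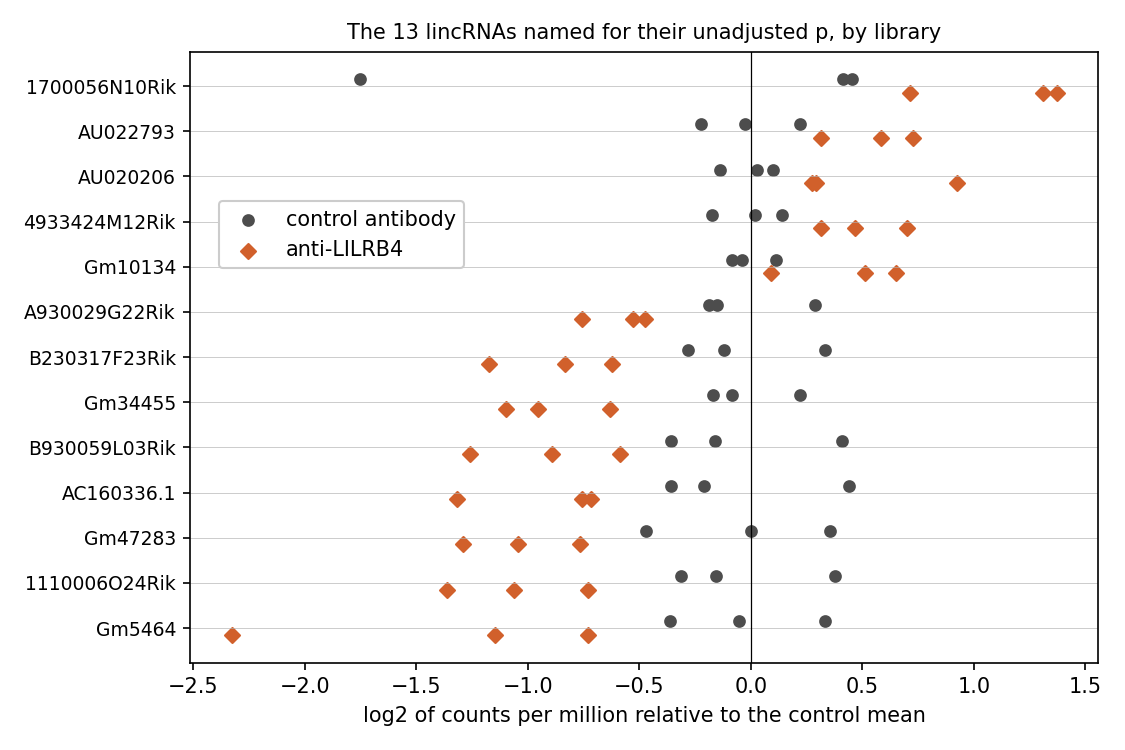
Level of the 8 lower and 5 higher members in each library, as log2 of CPM relative to the control mean; dots are control and diamonds anti-LILRB4 libraries. The groups overlap only for Gm10134, and Gm5464 in anti-LILRB4 library 1, with 3.04 CPM, and 1700056N10Rik in control library 1, with 0.633 CPM, stand apart.

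Neither of the nuclear-body RNAs passed the test. Malat1 had a log2 fold change of -0.11 ± 0.12 (SE), and of 0.05 without anti-LILRB4 library 3. Neat1 had 15.5, 12.2 and 12.97 CPM in control libraries and 11.6, 16.0 and 8.62 in anti-LILRB4 libraries. Its groups overlapped (log2 fold change of -0.17 ± 0.25, and 0.02 without anti-LILRB4 library 3). Of 16 listed paraspeckle protein genes, 8 were above and 8 below 0 with a median of 0.02, and edgeR called 0 of them. The one with the smallest p was Tardbp, which encodes the RNA-binding protein TDP-43. It had 47.0, 41.9 and 48.8 CPM in control libraries and 33.2, 31.2 and 29.9 in anti-LILRB4 libraries, with no overlap (log2 fold change of -0.55 ± 0.13, edgeR adjusted p of 0.426, DESeq2 0.0137). Rbm14, needed for paraspeckles to form, had a log2 fold change of -0.39. Among the 16 speckle and splicing-factor genes, 8 were above and 8 below 0, the median was -0.02 and edgeR called 0. Srrm2, a scaffold of speckles, went from 52.3 ± 12.95 to 79.9 ± 28.0 CPM with overlapping groups, and Srsf5, a splicing factor, from 102 ± 8.35 to 116 ± 5.35 CPM.

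The nuclear RNA decay genes, which encode the exosome and its adaptors, were 8 above and 11 below 0 of 19 tested, with a median of -0.04 and 0 called by edgeR. Dis3, a catalytic subunit of the exosome, had 7.69, 11.0 and 10.4 CPM in control libraries and 6.54, 7.32 and 5.44 in anti-LILRB4 libraries (log2 fold change of -0.59 ± 0.24, edgeR adjusted p of 0.580). Exosc10, the nuclear catalytic subunit, went from 34.5 ± 4.87 to 44.3 ± 6.77 CPM.

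Of the 16 members that span a small RNA, edgeR called 0, and no test of them as a set was run. Of these, 13 were below 0 and 3 above, where 61.5% of all members were below 0. Their median log2 fold change was -0.22, beside -0.12 for all members. An unadjusted edgeR p under 0.05 was found for 1 of the 16 (6.25%), against 8.03% of all genes. The groups did not overlap for 2 of them (12.5%), against 14.7% of all genes. Dubr is counted among the 16 though the only miRNA in its span lies on the opposite strand. Mir142hg was the most even of the abundant ones, with 119, 109 and 111 CPM in control libraries and 113, 118 and 118 in anti-LILRB4 libraries. Its log2 fold change was 0.05 ± 0.10, and its groups overlapped.

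The let-7 host 6720427I07Rik had 16.98, 15.4 and 19.3 CPM in control libraries and 16.9, 12.0 and 10.1 in anti-LILRB4 libraries (log2 fold change of -0.41 ± 0.22). Ftx had 21.5, 18.0 and 22.7 CPM and then 16.3, 20.0 and 12.9 CPM (-0.34 ± 0.20). Mir181a-1hg and 4833445I07Rik, the hosts of miR-181b and of miR-191 and miR-425, had log2 fold changes of -0.34 ± 0.37 and -0.37 ± 0.38. In each of these 4 the groups overlapped. Mature miRNAs are too short for these libraries, and no level of one is given by the host's level. The transcript 2900076A07Rik, with miR-1839, had -0.42 ± 0.24 and groups that did not overlap, and Gm37233, with miR-5103, had -0.36 ± 0.38.

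Of the snoRNA hosts among the members, Snhg12 had 16.3, 12.1 and 12.7 CPM in control libraries and 11.1, 9.04 and 8.04 in anti-LILRB4 libraries. The groups did not overlap, with a log2 fold change of -0.54 ± 0.22 and an edgeR adjusted p of 0.576. Snhg6 had a log2 fold change of -0.28 ± 0.22, Snhg20 -0.12 ± 0.23, Snhg10 -0.03 ± 0.24 and Snhg15 0.18 ± 0.29, all with overlapping groups. The snoRNA hosts A830008E24Rik and 2700038G22Rik, had 0.09 ± 0.13 and -0.05 ± 0.38. On the list of snoRNA hosts 15 genes were tested, of which 5 are members, and 5 were above and 10 below 0 with a median of -0.12 and 0 called by edgeR. Gas5, which is no member and has the smallest p of that list, had 326, 238 and 244 CPM in control libraries and 211, 184 and 202 in anti-LILRB4 libraries (log2 fold change of -0.44 ± 0.13, edgeR adjusted p of 0.506). Snhg11 was near 0, with 0.248 to 0.592 CPM in control libraries and at most 0.0887 in anti-LILRB4 libraries.

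The X-chromosome transcript Jpx, known like Ftx as an activator of Xist, had a log2 fold change of -0.12 ± 0.18. Pvt1 was 19.6, 19.7 and 19.3 CPM in control libraries and 18.1, 15.8 and 13.5 in anti-LILRB4 libraries, without overlap (-0.30 ± 0.17, edgeR adjusted p of 0.699). Myc, the transcription factor gene 47612 bp away, had -0.39 ± 0.17 with overlapping groups. Oip5os1, known as Cyrano and as a transcript that triggers decay of miR-7, was 62.5, 49.7 and 53.3 CPM in control and 47.5, 49.4 and 48.7 in anti-LILRB4 libraries, also apart (-0.18 ± 0.13, edgeR adjusted p of 0.766).

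Morrbid, known to restrain the death-promoting gene Bcl2l11 in short-lived myeloid cells, had means of 5.32 ± 1.03 and 5.26 ± 0.38 CPM, and Bcl2l11 had a log2 fold change of -0.08 ± 0.12. Trp53cor1, or lincRNA-p21, had 6.79 ± 1.17 and 6.99 ± 1.95 CPM, and Cdkn1a, the p21 gene, had a log2 fold change of 0.03 ± 0.26. Lncpint, a p53-responsive transcript, had 14.6 ± 3.84 and 15.0 ± 4.11 CPM. Ino80dos had a log2 fold change of 0.19 ± 0.17, Dubr -0.08 ± 0.27 and Epb41l4aos -0.16 ± 0.35. Of 24 well-studied long noncoding RNAs tested from a fixed list, 12 are members, and the 24 were 11 above and 13 below 0 with a median of -0.03 and 0 called by edgeR. Meg3, a lincRNA known from neurons that fell short of the abundance threshold, had 0.972, 0.992 and 1.75 CPM in control libraries and 0.199, 0.368 and 0.364 in anti-LILRB4 libraries.

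By position in GENCODE M21, 26 members overlap the span of a protein-coding gene and 28 start divergently, within 1 kb of the start of one on the opposite strand. Another 15 follow the 3′ end of one on the same strand within 5 kb, 100 lie otherwise within 50 kb of one and 36 lie farther away. These classes were chosen after values had been seen and get no test. The divergent members had the lowest median log2 fold change, -0.31, with 8 above and 20 below 0. Their library medians were 0.22, 0.19 and 0.09 in control and -0.15, -0.23 and -0.06 in anti-LILRB4 libraries. Each control median was thus above each anti-LILRB4 median, which also held over all members and over those otherwise within 50 kb. The groups did not overlap for 21.4% of divergent members and 24% of those otherwise within 50 kb, against 14.7% of all genes. The protein-coding partners of the divergent members had a median of -0.02 over the 27 tested, and 12 of the 27 pairs had the same sign. One such pair is A430105J06Rik with Rrp15 (-0.74 ± 0.39 for the lincRNA and 0.59 ± 0.29 for Rrp15).

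The members that follow a 3′ end had a median of 0.04, and 12 of 14 had the same sign as the gene before them, with a Spearman correlation of 0.54 across the 14 pairs. Over all 176 members with a tested neighbour, 95 had its sign and the Spearman correlation was 0.20. Both values of a pair come from the same 6 libraries. Overlapping members had a median of -0.13, those otherwise within 50 kb -0.14 and those farther away -0.01. Members with 1 exon had a median of -0.17, and those with 2 or more -0.12.

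**Figure D5:**
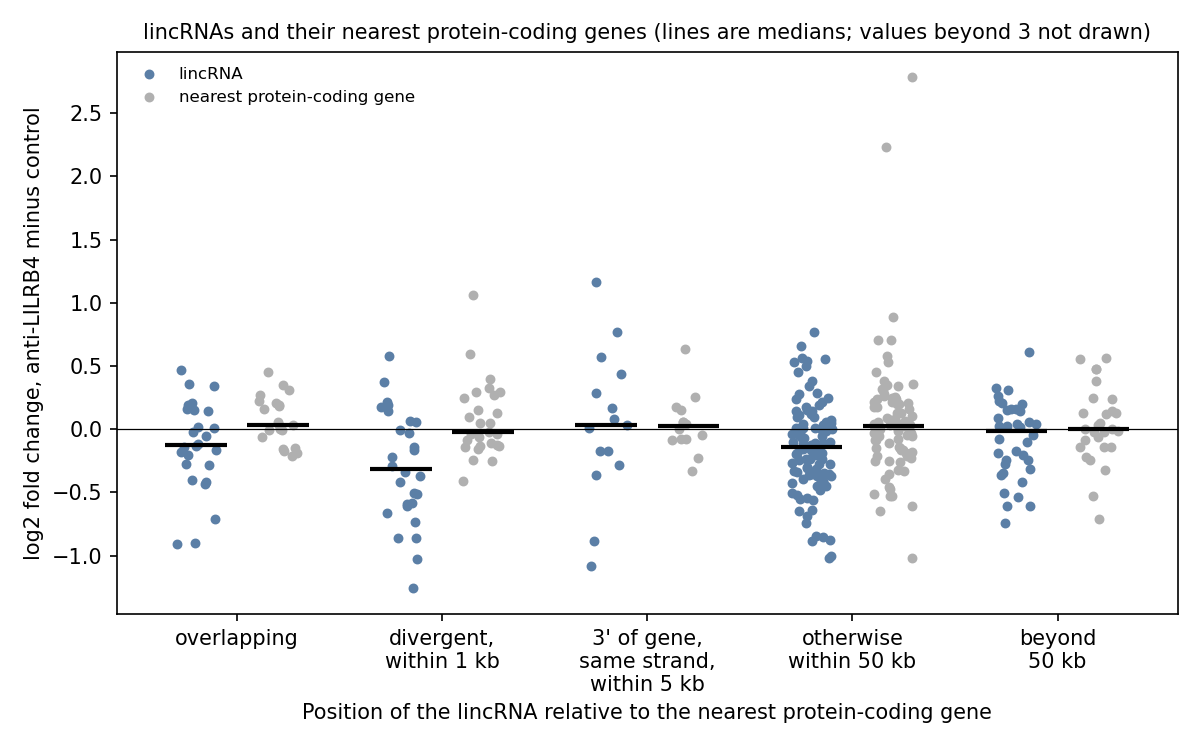
Log2 fold change, anti-LILRB4 minus control, of the members (blue) and of their nearest protein-coding genes (grey), by position; black lines are medians and values beyond 3 are not drawn. The divergent members have a median of -0.31 and their partners one of -0.02.

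The cells carried the markers of their label. The 10 listed microglial markers summed to 40049 to 44405 CPM per library, with all 10 detected. For B cells, T cells and oligodendrocytes, the listed genes had summed levels that were higher in every anti-LILRB4 library than in every control library. B cell genes summed to 457 to 531 CPM in control and 597 to 708 CPM in anti-LILRB4 libraries, T cell genes to 22.3 to 28.1 and 35.4 to 41.2 CPM, and oligodendrocyte genes to 123 to 145 and 161 to 168 CPM. A single gene supplied most of the first sum, Ighm (398 to 413 CPM in control and 495 to 549 in anti-LILRB4 libraries; DESeq2 adjusted p of 0.0314, edgeR 0.426). The same held for the T cell sum, with Il7r at 21.3 to 26.6 and 33.1 to 39.3 CPM (DESeq2 adjusted p of 0.0101, edgeR 0.426). Neutrophil genes summed to 1316, 579 and 604 CPM in control libraries and 137, 1145 and 215 in anti-LILRB4 libraries, with overlap. Erythroid genes summed to 0.200 to 0.921 CPM in control libraries and to 0.676, 35.4 and 1.03 CPM in anti-LILRB4 libraries, so library 2 of that group stood apart. The groups also overlapped for monocyte genes (26.9 to 89.8 CPM), border-associated macrophage genes (38.8 to 75.5 CPM), astrocyte genes (251 to 287 CPM), endothelial genes (7.62 to 22.1 CPM) and neuron genes (0.816 to 1.85 CPM). Most of the astrocyte sum came from Slc1a3 (243 to 286 CPM), while Gfap had at most 1.33 CPM. The part of these other cell types in the lincRNA values was not tested. In bulk RNA, fewer cells of a type cannot be told apart from less RNA per cell.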

How the data were processed

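RNA of sorted microglia was sequenced in 6 libraries, 3 per antibody, grouped by the sample titles and treatment labels. The libraries came from a low-input SMARTer cDNA kit, per the labels' protocols, so reads carry no strand. The authors deposited raw whole-number counts by Ensembl identifier. Per the submitters' processing notes STAR, Subread featureCounts, Salmon and DESeq2 1.38.3 were used. The build, annotation and rule for multiply matching reads behind the counts were not given in the sources used here. The authors' deposited comparison table gives, for each gene, log2 fold changes with their errors, p-values and adjusted p-values, a score (the change over its error) and a mean normalized count, which is a signal averaged by the authors over samples and was not used.

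Of 55780 rows, 287 were repeats of an identifier with the same counts and were removed. Counts were tested with edgeR 4.0.16 (R 4.3.3) on 18210 genes. The steps were filterByExpr with a minimum count of 10, scaling by TMM, and a quasi-likelihood fit of the treatment alone, with Benjamini-Hochberg adjustment over all genes and calls under 0.05. CPM values use TMM library sizes, except in the abundance rule, which uses plain totals. Alternatives were DESeq2 1.42.0, limma-voom (limma 3.58.1), other size factors, no filter, a replicate block, other abundance thresholds and leaving out each library. The tests were checked on simulated data. Positions, exons, distances and neighbours are those of GENCODE M21 (GRCm38), joined by Ensembl identifier for 205 of 205 members. Figures were drawn with matplotlib 3.10.9.

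Members, gene lists, markers and tests were chosen with earlier results of these data known. Members were named if they were among the 8 most abundant, among up to 8 per direction with the smallest unadjusted p under 0.05, had a gene name of their own, lay at the abundance threshold or spanned a small RNA. From the lists of genes the 2 with the smallest p were eligible. Marker lists are given as summed levels, and the gene that supplied most of the sum is named for B cells, T cells and astrocytes.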

Additional observations from a re-analysis of the deposited data

How the results depend on the processing

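No member was called by edgeR under another scaling, voom, the replicate block or any left-out library. Over all genes, DESeq2 called 169 (84 higher and 85 lower) and edgeR without the filter on low counts 300 (183 higher and 117 lower), against 0. Among members these 2 settings called 3 and 2, all lower. The median log2 fold change of the members was -0.0462 at a threshold of 5 CPM (123 members) and -0.12 at 1 CPM (302 members), and ran from -0.14 to -0.08 with a library left out. Members whose groups do not overlap numbered 26 at 5 CPM (21.1% of 123), against 14.7% of all genes tested with all 6 libraries. With a library left out such members numbered 56 to 66, and the share over all genes for those settings is not given here. Smaller groups overlap less easily, and the counts over 1.5 times the reported one were 63 (control library 2 left out), 62 (anti-LILRB4 library 2) and 66 (anti-LILRB4 library 3). The 153 members that share no exons and kept their class in GENCODE M21, a choice made after seeing the data, had a median of -0.13. Over all genes tested, libraries of the same replicate number did not deviate together (correlations of 0.0136, 0.0290 and -0.0138). The correlations were not computed for the members alone. The replicate block called 0 genes, gave a member median of -0.13 and turned 1 named member, Morrbid, to 0.00024. With a library left out, the sign turned for 13 named members near 0, the cause of which was not tested. Their log2 fold changes ran from -0.45 to 0.21 for 2700038G22Rik, -0.19 to 0.0113 for 2900097C17Rik, -0.21 to 0.17 for Dubr, -0.32 to 0.12 for Epb41l4aos, -0.00472 to 0.0867 for Gm2629, -0.16 to 0.25 for Lncpint, -0.19 to 0.0469 for Malat1, -0.15 to 0.13 for Morrbid, -0.42 to 0.0214 for Neat1, -0.19 to 0.15 for Snhg10, -0.0113 to 0.37 for Snhg15, -0.29 to 0.0074 for Snhg20 and -0.12 to 0.25 for Trp53cor1. With 82 members at 2 to 5 CPM, counting error and 3 libraries per group limit what could be called, and the median standard error of a member's log2 fold change was 0.30.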
